A study of Mus musculus with 12 samples.

Results

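The mitochondrial enzyme genes Sdhd, Cox5a and Dlat were followed in C2C12 cells, myoblasts of the mouse that form multinucleated myotubes once serum is withdrawn. They were chosen by name, and all 3 were found among the 27942 genes analysed. Every library came from this 1 cell line, with no genetic change named in the labels. Both groups were grown to 80% density in 10% fetal bovine serum and then differentiated in 2% horse serum for 7 days. The control group (3 libraries) was untreated, and the OI group (3 libraries) received 25 µmol/L 4-octyl itaconate, a cell-permeable ester of the metabolite itaconate. Whether the libraries of a group stem from separate cultures is not said in the labels, so the p-values below compare groups against a spread between libraries that may be purely technical. Of the 12 samples in the series, 6 were not analysed here.

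The pyruvate dehydrogenase complex turns pyruvate into acetyl-CoA, which feeds the Krebs cycle, and Dlat encodes its dihydrolipoamide acetyltransferase. Succinate dehydrogenase, also called complex II, oxidizes succinate in the Krebs cycle and passes the electrons to the respiratory chain, and Sdhd encodes a subunit that anchors it in the inner mitochondrial membrane. Cytochrome c oxidase, or complex IV, hands the electrons on to oxygen, and Cox5a encodes a nuclear subunit of it. Itaconate is known as a competitive inhibitor of succinate dehydrogenase, and differentiating muscle cells are known to raise their mitochondrial content. Inhibition of an enzyme is not read by RNA levels, which are what was measured.

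No difference in RNA level between the groups was detected for any of the 3 genes. On the deposited scale and relative to control, the mean level in OI stood at -5.66% for Sdhd, -3.50% for Cox5a and -1.44% for Dlat. The signs turned under other scalings between libraries, for Sdhd and Dlat with quantile normalization, for Dlat with median-of-ratios scaling and for all 3 with a common sum. The common sum divides control replicate 1 by 2.87 and the other libraries by 0.783 to 0.858. With the common sum the median log2 fold change of all genes tested was 0.35, and the SE of the 3 genes was 0.70 to 0.74. By the deposited gene lengths, 23.9% of control replicate 1 fell in the genes analysed, against 5.25% to 5.77% of the other libraries. None of the 3 passed limma (adjusted p from 0.537 to 0.944, unadjusted from 0.211 to 0.807), while 2.76% of the 1737 genes tested did so, 1.61% being lower and 1.15% higher in OI, and 17.8% had an unadjusted p under 0.05. A limma voom fit on recovered read numbers passed 0 of the 3 and 1.99% of the 3117 genes in it. The troponin gene Tnnc1, a component of the contractile apparatus, fell in the same libraries by a log2 fold of -2.39 ± 0.11 (SE; adjusted p = 0.000188 with limma).

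Levels are given in FPKM, reads or fragments scaled to exon length and library size. Library sizes recovered from the FPKM values ran from 24441000 to 36274000. Control replicate 1 stood apart: AY036118, a locus derived from ribosomal RNA, reached 70761 FPKM in it against 691 to 2450 FPKM in the other 5 libraries, and the fold changes of the 3 enzyme genes are also given without that library. Muscle identity could be checked with only a few genes. Of 14 fixed markers of muscle differentiation 2 were among the genes analysed, Tnnc1 and H19. Tnnc1 was at 21.9 to 140.4 FPKM and the muscle-abundant RNA H19 at 24.1 to 136 FPKM, with the lowest values in OI for both. Of 5 fixed markers of proliferating myoblasts 1 was among the genes analysed, Cdc45. It was at 1.73 to 1.89 FPKM in control and 1.49 to 1.99 FPKM in OI (log2 fold change -0.01, limma adjusted p = 0.971). None of the fixed markers of fibroblasts, adipocytes, osteoblasts or macrophages was among the genes analysed. In bulk RNA, fewer cells of a type and less RNA per cell cannot be told apart.

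**Figure D1:**
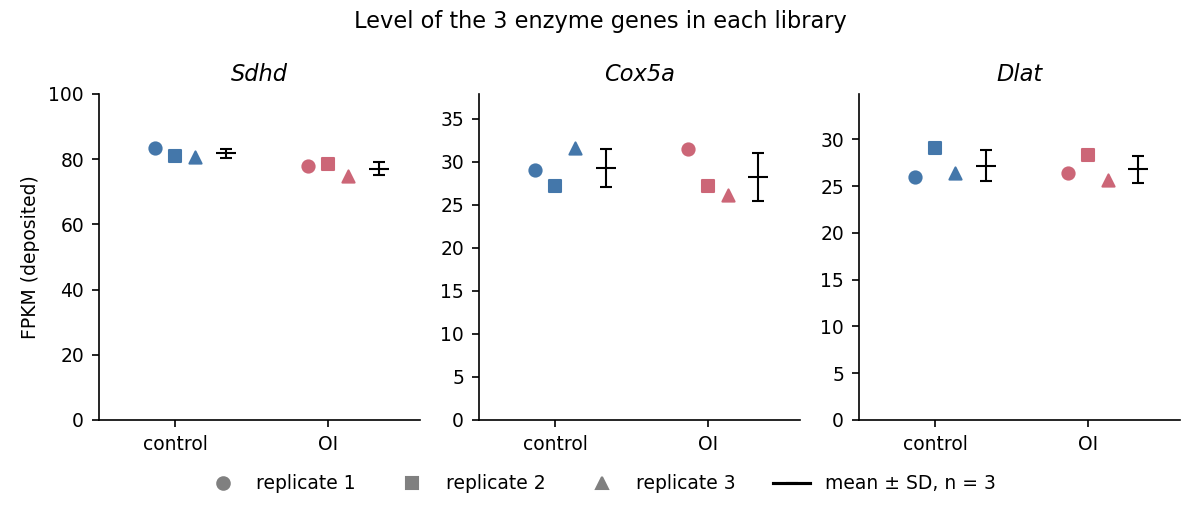
Level of Sdhd, Cox5a and Dlat in FPKM (y axis, from 0) in each of the 3 control and 3 OI libraries, with the mean and SD of each group beside the points. Sdhd lies at 74.9 to 78.5 in OI and at 80.7 to 83.4 in control, and for Cox5a and Dlat the groups overlap.

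Sdhd (ENSMUSG00000000171) lies on chromosome 9 at 50596357 to 50603812 on the minus strand (GRCm38) and has 1 annotated transcript of 4 exons and 1231 bases. The control libraries 1 to 3 had 83.4, 81.1 and 80.7 FPKM, and the OI libraries 1 to 3 had 77.8, 78.5 and 74.9 FPKM. Every OI library was below every control library, and the closest pair across the groups was control replicate 3 and OI replicate 2. Such a separation in the lower direction was seen in 12.5% of all genes tested, and in either direction in 23.6%.

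Sdhd averaged 81.7 ± 1.49 FPKM in control against 77.1 ± 1.91 FPKM with OI (SD, n = 3 each). The log2 fold change was -0.08 ± 0.06 (SE, limma adjusted p = 0.537), with a 95% interval from -0.23 to 0.06, or a fold from 0.854 to 1.04. The exact permutation test over the 6 libraries gave p = 0.1 (two-sided), the smallest value that 20 splits allow. Any gene whose groups do not overlap gets this value, so it adds nothing to the separation above. The order of the libraries depended on the scaling between them. With median-of-ratios scaling the control libraries were at 82.0, 80.3 and 78.9 and the OI libraries at 76.7, 79.1 and 75.7, so that OI replicate 2 lay above control replicate 3. With quantile normalization the log2 fold change was 0.06 and so of the opposite sign. Without control replicate 1 the log2 fold change on the deposited scale was -0.07 (limma adjusted p = 0.706).

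Among the 310 protein-coding genes tested, Sdhd ranked 15 by mean FPKM. Its level was also among the steadiest of the genes at 20 FPKM or more, of any gene type. The coefficient of variation over all 6 libraries was 3.73%, and 4.48% of the 201 genes with a mean of 20 FPKM or more had a lower one. The median over those 201 genes was 11.6%. They were taken by FPKM alone and include short RNAs and pseudogenes, such as the miRNA Gm24187 at 74.0 ± 123 FPKM in control (SD). No comparison was made with protein-coding genes of like read number. Reads recovered for Sdhd numbered from 2369 to 3507 per library, for which counting alone gives a coefficient of variation of 1.69% to 2.05%. The spread within control, 1.82%, lay inside that range, and the spread within OI was 2.48%.

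The start of Sdhd is shown here because it is the only one of the 3 that held a match to the motifs searched. The window of RefSeq (GRCm38.p6) runs from 250 bases before the start of the gene in RefSeq to 50 bases from it onwards. It lies at chr9:50603800-50604099 on the minus strand, and the matches are in capitals. The start in RefSeq lies upstream of the start in GENCODE, 50603812.
Sdhd: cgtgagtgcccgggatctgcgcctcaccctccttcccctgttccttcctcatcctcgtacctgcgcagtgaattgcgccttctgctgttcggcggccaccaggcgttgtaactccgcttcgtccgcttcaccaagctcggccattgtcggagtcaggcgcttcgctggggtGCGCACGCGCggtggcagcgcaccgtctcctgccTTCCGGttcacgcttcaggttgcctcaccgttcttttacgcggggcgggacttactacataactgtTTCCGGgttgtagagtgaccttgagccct
The motif of NRF1, a factor known for nuclear genes of the respiratory chain, was searched on both strands. It was searched as the 10 bases that read GCGCACGCGC here, with any base allowed at the sixth. It matched 1 time, at bases -79 to -70, counting the first base of the gene in RefSeq as 0. The core motif of GABP, another factor known for such genes, was searched as CCGGAA on both strands. It matched 2 times, both on the opposite strand as TTCCGG, at bases -45 to -40 and 21 to 26. The match at 21 to 26 lies inside the gene by its RefSeq start but before the GENCODE start. The antioxidant response element bound by NRF2, searched as TGACNNNGC on both strands, had no match. Of 32851 windows of 300 bases, 4.60% held the NRF1 motif, 14.9% the GABP core and 12.4% the antioxidant response element. These shares were not matched for base composition. The Sdhd window held 62% G and C, beside a median of 52.7% over the windows. The windows of Cox5a and Dlat had no match to any of the 3 motifs. No binding was measured, and the letters alone do not show that a factor binds there. In GENCODE M21 the start of Sdhd at 50603812 lies 98 bases from that of Timm8b. This gene of mitochondrial import runs in the opposite direction and was not analysed here. Timm8b covers 50603910 to 50605320 on the plus strand. Most of the window before Sdhd, with the NRF1 match, therefore lies within Timm8b.

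Cox5a (ENSMUSG00000000088) lies on the plus strand of chromosome 9 at 57521274 to 57532426. The 3 control libraries read 29.0, 27.2 and 31.6 FPKM, and the 3 OI libraries 31.4, 27.1 and 26.1 FPKM. The groups overlapped, and OI replicate 1 was higher than 2 of the 3 control libraries. The mean was 29.3 ± 2.22 FPKM without and 28.2 ± 2.81 FPKM with OI (SD, n = 3 each).

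For Cox5a the log2 fold change was -0.05 ± 0.10 (SE, limma adjusted p = 0.850), with a 95% interval from -0.29 to 0.19. That interval corresponds to a fold between 0.818 and 1.14. The exact permutation test gave p = 0.5 (two-sided, 20 splits). Without control replicate 1 the log2 fold change was -0.06 (limma adjusted p = 0.872), and without control replicate 3 or without OI replicate 3 it was 0.00. Cox5a varied most of the 3 genes, with a coefficient of variation of 8.13% over the 6 libraries against 2.17% to 2.66% from counting 1410 to 2121 reads. Of the 201 genes of any type with a mean of 20 FPKM or more, 27.4% varied less.

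Reads of Cox5a could be shared with few other genes. The long non-coding RNA Gm26631 overlaps an exon of Cox5a by 146 bases on the opposite strand and was at 0.249 to 0.653 FPKM. Strandedness of the counting is not given in the sources used, so reads in the overlap cannot be assigned. Of the processed pseudogenes that resemble Cox5a, Gm49487 was listed at 0 in all 6 libraries, and Gm11633, with 93.0% identity, was not analysed here.

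Dlat (ENSMUSG00000000168) lies on chromosome 9 at 50634633 to 50659780 on the minus strand, 30.82 kb from Sdhd. Control libraries 1 to 3 gave 26.0, 29.1 and 26.5 FPKM for it, and OI libraries 1 to 3 gave 26.4, 28.4 and 25.6 FPKM. The groups overlapped, and the libraries numbered 2 were the highest of each group. Mean levels were 27.2 ± 1.67 FPKM without and 26.8 ± 1.42 FPKM with OI (SD, n = 3 each).

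The log2 fold change of Dlat was -0.02 ± 0.08 (SE, limma adjusted p = 0.944), with a 95% interval from -0.21 to 0.17, or a fold from 0.866 to 1.12. The exact permutation test gave p = 0.6 (two-sided, 20 splits). With median-of-ratios scaling the log2 fold change was 0.00, with quantile normalization 0.01, without control replicate 2 it was 0.03, and without control replicate 1 it was -0.05 (limma adjusted p = 0.852). Of all genes tested, 91.5% had a larger change in size, against 79.7% for Cox5a and 68.8% for Sdhd. The coefficient of variation of Dlat was 5.19% over the 6 libraries, and counting 3105 to 5028 reads gives 1.41% to 1.79%. No near-identical copy of Dlat or Sdhd and no overlapping exon of another gene was found in GENCODE M21.

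**Figure D2:**
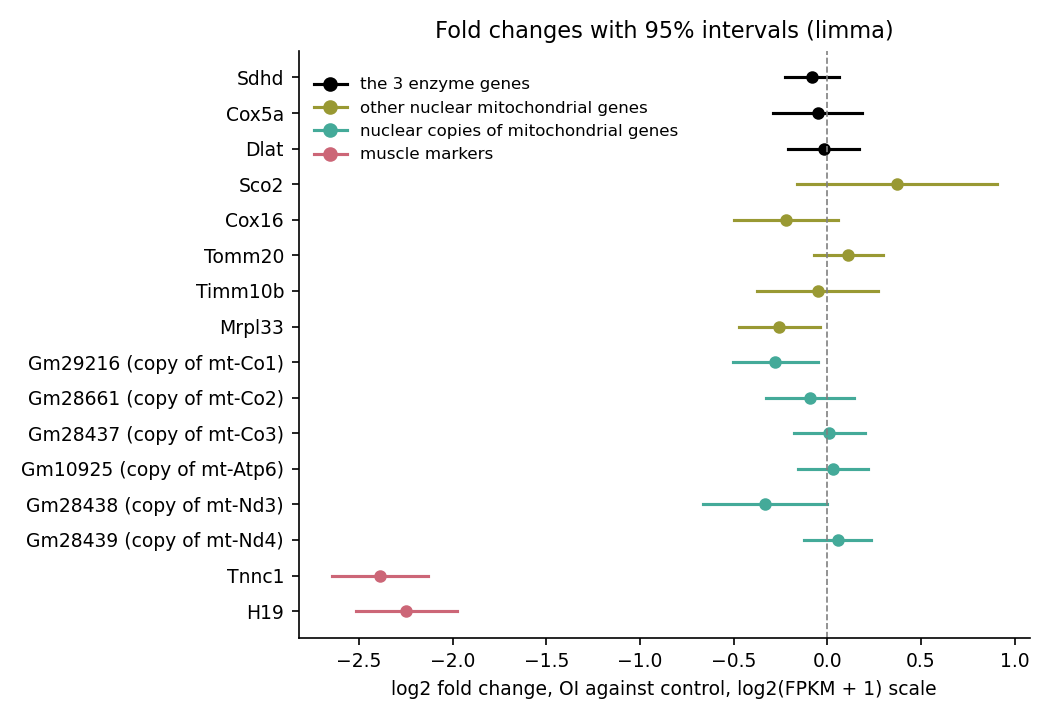
Log2 fold change of OI against control on the log2(FPKM + 1) scale (x axis), with 95% intervals from limma, for the 3 enzyme genes, other nuclear mitochondrial genes, nuclear copies of mitochondrial genes and 2 muscle markers. The intervals of Sdhd, Cox5a and Dlat span 0 and lie between -0.29 and 0.19, while Tnnc1 and H19 lie near -2.39 and -2.25.

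As deposited, Sdhd was the most abundant of the 3 per kilobase, and Cox5a and Dlat could not be ordered. Sdhd exceeded Cox5a in 6 of 6 libraries by 2.48 to 2.99 times, and Dlat in 6 of 6 libraries by 2.77 to 3.21 times. Cox5a was above Dlat in 4 of 6 libraries, with the ratio between 0.934 and 1.19. In both libraries numbered 2 it was below Dlat.

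That order rests on the length by which the reads were divided. FPKM values of Cox5a and Dlat gave whole numbers of reads, within 0.04 of a read, with only 1 of the 2 lengths tried, the summed length of all exons annotated in GENCODE M21, which is 2101 bases for Cox5a and 4886 bases for Dlat. The gene lengths in the deposited tables are 1818 and 4035 bases and gave fractions of up to 0.368 and 0.459 of a read. Over all genes with more than 1 exon, between 97.1% and 97.4% of the values under 1000 reads were whole within 0.02 with the summed exons, and between 67.2% and 68.7% with the deposited length. For Sdhd, with 1 transcript, both lengths are the same.

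Cox5a has 3 annotated transcripts, of which 1 is protein-coding, with 5 exons and 645 bases, and 2 are retained introns of 1818 and 605 bases. The summed exons are therefore 3.26 times as long as the coding transcript, against 1.21 times for Dlat. If all reads are ascribed to the coding transcript, which the files cannot show, Cox5a was at 93.6 ± 7.61 on the FPKM scale (SD, n = 6), Sdhd at 79.4 ± 2.96 and Dlat at 32.7 ± 1.70. On that scale Cox5a lay above Sdhd in 6 of 6 libraries, and the ratio of Sdhd to Cox5a was 0.760 to 0.917. Cox5a exceeded Dlat by 2.51 to 3.21 times. The divisor is the same in every library, so the ratio of FPKM between OI and control for the whole gene does not depend on it. On log2(FPKM + 1) it enters only through the added 1. Whether the share of reads from retained introns differed between the groups was not tested.

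**Figure D3:**
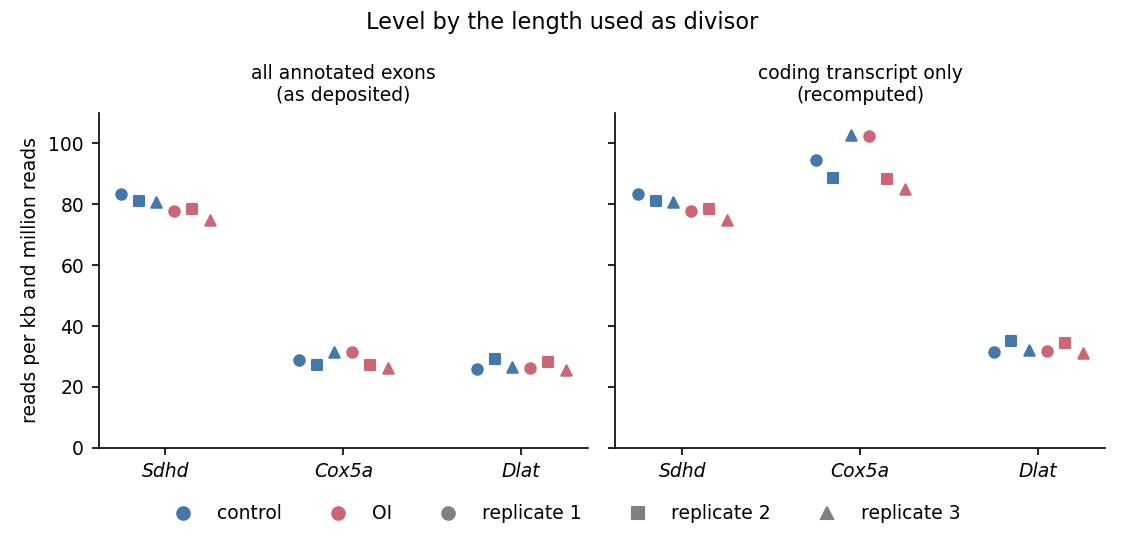
Level of the 3 genes in reads scaled to length and library size (y axis, from 0) in each library, divided by all annotated exons as deposited (left) and by the coding transcript only (right). Sdhd is the highest on the left, while Cox5a rises from a mean of 28.7 to 93.6 on the right and lies above Sdhd in every library.

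Ratios between the genes within a library do not depend on scaling between libraries. The FPKM ratio of Cox5a to Sdhd was 0.358 ± 0.0298 in control and 0.366 ± 0.0327 in OI (SD, n = 3 each; exact permutation test, two-sided p = 0.6). The ratio of Dlat to Sdhd was 0.333 ± 0.0239 in control and 0.347 ± 0.0120 in OI (exact permutation p = 0.4). The ratio of Cox5a to Dlat was 1.08 ± 0.134 in control and 1.06 ± 0.121 in OI (exact permutation p = 0.9). Adjusted over the 3 ratios, each p was 0.9, and the groups overlapped in all 3. The largest of the 3 shifts on the log2 scale was 0.06, for Dlat to Sdhd. By contrast, the ratio of Tnnc1 to Sdhd was 1.54 ± 0.166 in control and 0.301 ± 0.0139 in OI, given as a description because the fall of Tnnc1 in these libraries was known when the ratio was chosen.

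**Figure D4:**
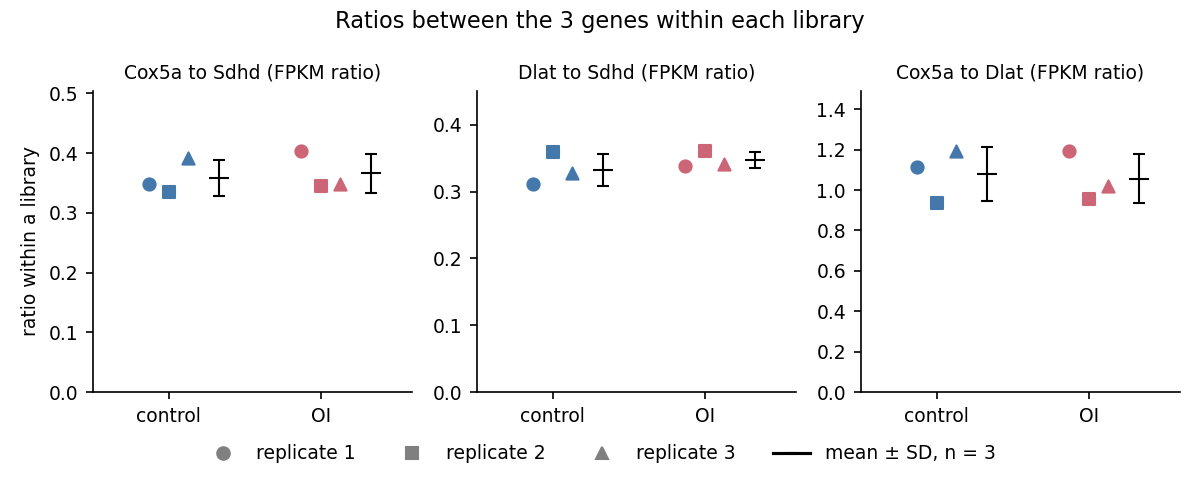
FPKM ratios of Cox5a to Sdhd, Dlat to Sdhd and Cox5a to Dlat (y axes, from 0) in each library, with the mean and SD of each group. The control and OI libraries overlap in all 3 ratios.

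Few partners of the 3 genes in their complexes could be read. Sdhd was the only one of 8 listed complex II genes and of 20 listed Krebs cycle genes among the genes analysed, and Dlat the only one of 17 listed genes of the pyruvate dehydrogenase complex. Of 40 listed complex IV genes, 3 were analysed and none passed limma, with 0 at an unadjusted p under 0.05 and 0 in the voom fit, beside 17.8% and 1.99% over all genes in these fits. None of 11 listed genes of itaconate and succinate handling and none of 26 listed targets of NRF2 was among the genes analysed. Besides Cox5a, the listed complex IV genes analysed were Sco2, a copper chaperone of the enzyme, and Cox16, an assembly factor. Sco2 was at 12.3, 7.71 and 7.29 FPKM in control and 14.7, 10.8 and 10.2 FPKM in OI, which makes 0.37 ± 0.22 (SE) on the log2 scale, limma adjusted p = 0.444. Cox16 was at 4.85, 5.35 and 5.53 FPKM in control and 3.66, 5.01 and 4.48 FPKM in OI, which makes -0.22 ± 0.12 (SE) on the log2 scale, limma adjusted p = 0.385. The groups overlapped for both. The list did not hold all assembly factors of complex IV that were tested. Outside it were Pet117, given under the other observations, and Pet100. Pet100 averaged 3.67 FPKM in control and 3.08 FPKM in OI, with overlapping groups (log2 fold change -0.22, limma adjusted p = 0.663).

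Other mitochondrial genes gave values in both directions. Mrpl33, a protein of the mitochondrial ribosome, was at 8.37, 7.99 and 8.54 FPKM in control and 7.61, 6.50 and 6.30 FPKM in OI. Every OI library was lower, as in 12.5% of all genes tested. The log2 fold change of Mrpl33 was -0.26 ± 0.09 (SE, limma adjusted p = 0.230). Tomm20, a receptor of the outer membrane import machinery, stood at 0.11 on the log2 scale (limma adjusted p = 0.505), and Timm10b, a small protein of the inner membrane import machinery, at -0.05 (limma adjusted p = 0.894). The antisense RNA Tomm6os stood at -0.17, and the pseudogenes Ndufab1-ps and Atp5l2-ps at 0.10 and -0.04 (limma adjusted p from 0.571 to 0.937). Among the 24 protein-coding genes tested that the deposited tables annotate to the mitochondrion, a set chosen after seeing the data, 12 had a lower and 12 a higher mean in OI on the log2 scale. None of the 24 passed limma, beside 2.76% of all genes tested, and 3 had an unadjusted p under 0.05, beside 17.8%. The voom fit passed 0 of them, beside 1.99% of its genes. The median log2 fold change of the 21 without Sdhd, Cox5a and Dlat was 0.03, beside -0.02 over all genes tested. Within the 24, every OI library was lower for Sdhd, Rtl10 and Mrpl33. For Hddc2, Hspa1b, Hspa1a, Mpv17 and Nudt8 every OI library was higher. Groups apart in either direction were seen in 23.6% of all genes tested.

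The core of complex IV is encoded in mitochondrial DNA, and the mitochondrial genes themselves were not analysed here. Near-identical copies of them in the nuclear genome on chromosome 1 were, and their reads cannot be told apart from mitochondrial ones. Of 6 such copies none passed limma (2.76% over all genes tested), 2 had an unadjusted p under 0.05 (17.8% over all), and 0 passed the voom fit (1.99% over all). By value 3 were higher and 3 lower, with a median log2 fold change of -0.04. Gm29216, which is 99.8% identical to mt-Co1, was at 5590, 5282 and 5127 FPKM in control and 4851, 4272 and 4109 FPKM in OI. Every OI library was lower, as in 12.5% of all genes tested, by -0.28 ± 0.09 on the log2 scale (SE, limma adjusted p = 0.216). Its FPKM ratio to Cox5a was 183 ± 18.1 in control and 156 ± 1.70 in OI (SD, n = 3 each). The copies of mt-Co2 and mt-Co3, Gm28661 and Gm28437, had log2 fold changes of -0.09 and 0.01 (limma adjusted p = 0.688 and 0.965). Their ratios to Cox5a were 207 ± 27.6 and 151 ± 14.5 in control and 201 ± 16.1 and 157 ± 11.05 in OI, so the 3 mean ratios did not all differ in 1 direction, and none was tested. The copies of mt-Nd3, mt-Nd4 and mt-Atp6, Gm28438, Gm28439 and Gm10925, had -0.33, 0.05 and 0.03 (limma adjusted p from 0.279 to 0.887).

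Copies and overlapping RNAs of other enzyme genes were sought because the genes themselves were not analysed here, and none linked to complex II was tested. Mpc1-ps, a processed pseudogene 99.7% identical to Mpc1, the carrier that brings pyruvate to the complex of Dlat, was at 58.6, 65.2 and 70.9 FPKM in control and 58.5, 62.1 and 55.8 FPKM in OI. The groups overlapped (log2 fold change -0.14, limma adjusted p = 0.491). Over all 24 genes linked to the mitochondrial lists, the chromosome 1 copies included, 14 were lower and 10 higher by value, which is 58.3% lower beside 55.4% of all genes tested. None passed limma (2.76% over all), 4 had an unadjusted p under 0.05 (17.8% over all), and 0 passed the voom fit (1.99% over all). The median log2 fold change was -0.03, beside -0.02 over all. The lowest was Gm16418, a copy of the complex III gene Uqcr11, at -0.66 (limma adjusted p = 0.239), with overlapping groups. The highest was Gm2962, a copy of another complex III gene, Uqcrb, at 0.13 (limma adjusted p = 0.914), also with overlapping groups.

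The genes whose levels ran most like those of the 3 over the 6 libraries were sought among 137 protein-coding genes with a mean of 5 FPKM or more. The values are Pearson correlations on log2(FPKM + 1), given as a description, and the libraries share their depth and scaling across genes. For Sdhd they were Fer at 0.961, Bcl2l2 at 0.919 and Gm9844 at 0.903. For Cox5a they were the ribosomal protein genes Rps13 at 0.943, Rps27 at 0.943 and Rpl24 at 0.906. For Dlat they were Med20 at 0.988, Synj2bp at 0.885 and Galnt2 at 0.769. Whether the groups overlap in these genes follows in part from the choice and is not read further.

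The other genes analysed near the 3 on chromosome 9, within 100 kb, were all below 1 FPKM. The protein-coding gene Pih1d2 lies between Sdhd and Dlat, 9633 bases from Dlat. It was at 0.727, 0.897 and 0.759 FPKM in control and 0.520, 0.451 and 0.581 FPKM in OI. Every OI library was lower, as in 12.5% of the genes tested, but Pih1d2 was below the filter of 1 FPKM and was not tested. The pseudogene D9Wsu149 near Cox5a was at 0.371 to 0.993 FPKM, Plet1os near Sdhd was at 0 to 0.559 FPKM, and Gm47077 and Gm18103 were listed at 0 in all libraries.

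**Figure D5:**
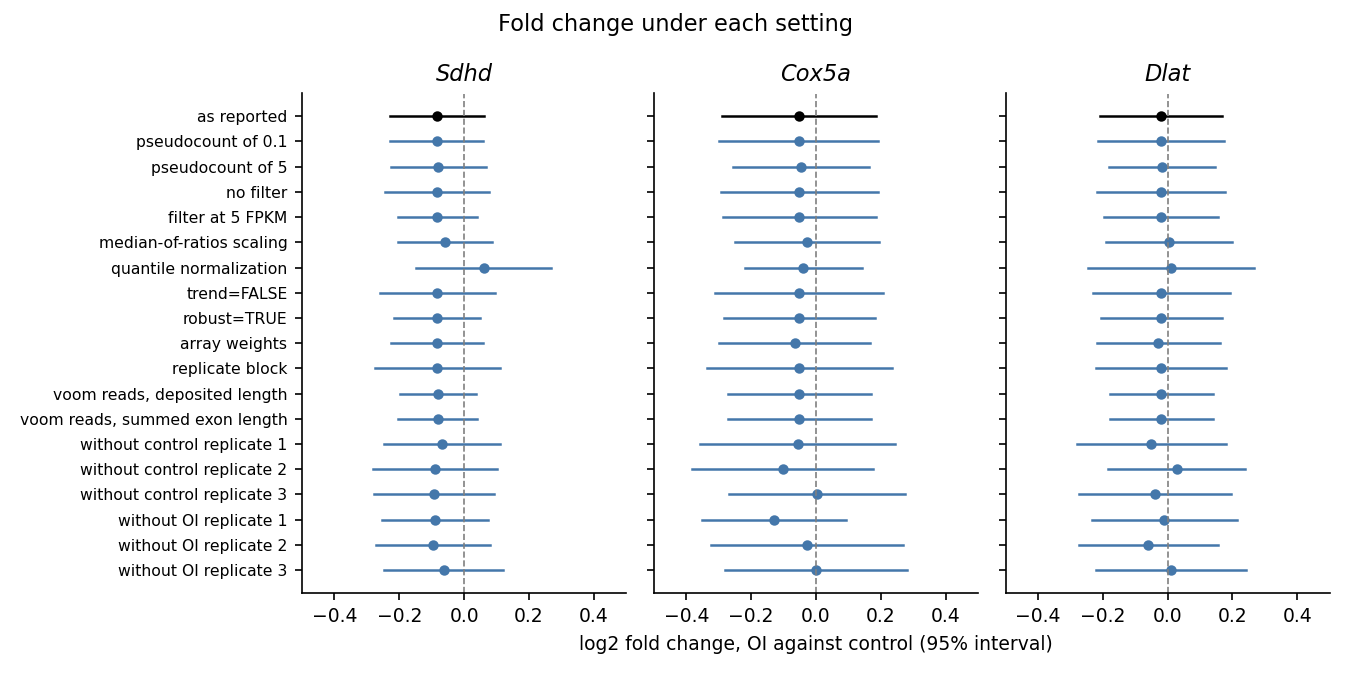
Log2 fold change of OI against control (x axis) with its 95% interval for each gene under each processing setting, except rescaling to a common sum, which divides control replicate 1 by 2.87 and the other libraries by 0.783 to 0.858 and is left out. Every interval shown spans 0, and the points lie between -0.13 and 0.06.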

How the data were processed

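The members and gene lists were chosen with earlier results of these data known. Per the submitters' processing notes, reads went through cutadapt 2.7, HISAT2 2.1.0 and StringTie 1.3.3b on mm10. What the authors deposited are FPKM values, in 1 table per library, of 27943 genes, with 1 broken row left out here. The Ensembl identifiers from ENSMUSG00000000320 up to ENSMUSG00000083778 were not part of the data used.

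Genes at 1 FPKM or more in at least 3 of 6 libraries (1737) were tested with limma 3.58.1 (R 4.3.3) on log2(FPKM + 1), trend=TRUE, two-sided, Benjamini-Hochberg adjusted over all of them at 0.05. That scale understates the fold of low genes. Single genes and ratios between genes were also compared with exact permutation tests over the 6 libraries, which were planned for the ratios only. Alternatives were other pseudocounts, filters, scalings and variance models, voom on recovered reads (the one with summed exons added after seeing the data), leaving out 1 library at a time, and a block for the replicate number. Library sizes came from the FPKM steps of genes with 1 exon, to the nearest 1000, and reads from FPKM, library size and the summed exons of GENCODE M21, which was chosen after seeing the data. Counting errors cover sampling only. Copies were sought with BLAST+ 2.17.0. Genes named are the 3 enzymes, tested members of the lists, neighbours within 100 kb, linked copies and the 3 protein-coding genes most correlated with each. Pet100 and some genes annotated to the mitochondrion were also named, after their values were seen. Further work used Python 3.11.15 with SciPy 1.17.1, pandas 2.3.3 and Matplotlib 3.10.9.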

Additional observations from a re-analysis of the deposited data

How the results depend on the processing

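None of the alternatives run passed Sdhd (limma adjusted p 0.344 to 0.861), Cox5a (0.520 to 0.999) or Dlat (0.802 to 0.987). Directions were less firm. With median-of-ratios scaling the log2 fold change of Dlat was 0.00 (0.004182 before rounding), and with quantile normalization it was 0.0114 for Dlat and 0.0599 for Sdhd. Rescaling to a common sum divides control replicate 1 by 2.87 and the other libraries by 0.783 to 0.858. It gave 0.49 ± 0.74 (SE) for Sdhd, 0.50 ± 0.70 (SE) for Cox5a and 0.53 ± 0.70 (SE) for Dlat. The median over all genes tested was 0.35 with it. Leaving out each library gave -0.10 to -0.06 for Sdhd, -0.13 to 0.00 for Cox5a and -0.0601 to 0.03 for Dlat. Cox5a was above 0 without control replicate 3 and without OI replicate 3 (0.003548 and 0.0003574), and Dlat without control replicate 2 and without OI replicate 3 (0.02836 and 0.01083). On the log2 scale the ratio differences ran from -0.0417 to 0.10 for Cox5a to Sdhd, from 0.02 to 0.12 for Dlat to Sdhd and from -0.13 to 0.0426 for Cox5a to Dlat. The first changed sign without control replicate 2 (-0.02) and without OI replicate 1 (-0.04), and the last without control replicate 3 (0.0426) and without OI replicate 2 (0.04). Dividing by the coding transcript moved the level of Cox5a from 28.7 to 93.6 and that of Dlat from 27.0 to 32.7.

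Of all genes tested, 48 passed. The count was 14 with no filter, 7 with the common sum and 15 to 24 with 1 library left out. It was 62 with voom on recovered reads, with either length, 53 with robust=TRUE and 43 to 49 with array weights, trend=FALSE, quantile normalization, median-of-ratios scaling, the stricter filter and the other pseudocounts. With the replicate number as a block it was 17, and the 3 genes stood at -0.08, -0.05 and -0.02 (limma adjusted p = 0.630, 0.865 and 0.946). The main fit was planned without that block. Deviations from the group mean correlated at 0.05, 0.14 and -0.08 between same-numbered libraries. Between differently numbered ones the correlations ran from -0.14 to 0.08. With 3 libraries a group, the 95% intervals of the main fit leave room for a fold down to 0.818 or up to 1.14 in the 3 genes. Other settings gave wider intervals. On the log2 scale that of Cox5a reached down to -0.36 without control replicate 1. That of Sdhd reached up to 0.27 with quantile normalization and ran from -0.95 to 1.94 with the common sum.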

Other observations

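Pet117, an assembly factor of complex IV, was named after its values were seen. The control libraries 1 to 3 had 5.61, 0.0473 and 7.31 FPKM, and the OI libraries 1 to 3 had 8.85, 0.0398 and 10.6 FPKM. The gene was near 0 in both libraries numbered 2 and above 5 FPKM in the other 4, while Cox5a in the libraries numbered 2 stayed at 27.2 and 27.1 FPKM. Pet117 shares exonic bases on the same strand with Kat14, which was not analysed here. The log2 fold change between the groups was 0.35 ± 1.18 (SE, limma adjusted p = 0.925).

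Among the protein-coding genes annotated to the mitochondrion, Hspa1b, an inducible heat shock protein, stood at a log2 fold of 0.19 (limma adjusted p = 0.156). Mpv17, an inner membrane protein, stood at 0.28 (limma adjusted p = 0.278). For both, every OI library was higher than every control library, and groups apart in either direction were seen in 23.6% of all genes tested. Together with Mrpl33, Hspa1b and Mpv17 are the 3 with an unadjusted p under 0.05, and they were named after their values were seen.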
